A study of Mus musculus with 6 samples.

Results

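The miR-183 cluster comprises 3 miRNA precursors, miR-183, miR-96 and miR-182, that lie close together on mouse chromosome 6. Its members were taken as every row named as a known mouse miRNA of these stems, from either arm of the precursor, which gave 6 of 1573 known miRNA rows. Of the 6 rows, 5 held a tag in at least 1 library, and 4 passed the expression filter (mmu-miR-183-5p, mmu-miR-182-5p, mmu-miR-183-3p and mmu-miR-96-5p, written below without the prefix) together with 612 other miRNAs. The rows come from small RNA libraries of primary peritubular myoid cells, the contractile cells around the seminiferous tubules, of C57BL/6J mice. The cells were cultured with fetal bovine serum and either treated for 5 min with 50 nM endothelin-1 (ET1), a peptide that contracts smooth muscle (n = 3 libraries), or left untreated (n = 3 libraries). The groups thus differ in ET1 treatment alone, as far as the labels go. Whether the libraries of a group stem from different cultures or animals is not given, so the p-values speak only to the spread among the libraries at hand, and that spread may be technical.

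The 3 precursors are known to be cut from a single primary transcript, and the cluster is best known from sensory cells such as photoreceptors and the hair cells of the inner ear. Mutations in the seed of miR-96 cause hearing loss in mice and humans. miR-182 is also induced in activated T lymphocytes, where it represses the transcription factor Foxo1. In each precursor the 5p arm is the guide strand that is usually loaded into Argonaute, and the 3p arm is the passenger strand.

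The libraries held 18127265 to 19493731 tags (ET1) and 18972157 to 20895432 tags (untreated), of which 4381927 to 4825429 (ET1) and 6240334 to 8651018 (untreated) were known miRNA tags. miR-143-3p, a miRNA of smooth muscle and the most abundant marker of the labelled cell type, was present in every library, at 11789 ± 1506 CPM (counts scaled to a common library total) in the ET1 libraries and 22500 ± 4132 CPM in untreated libraries. The other listed smooth muscle miRNAs were less abundant, down to miR-490-3p with at most 2 tags in a library. Listed germ cell miRNAs summed to more than smooth muscle miRNAs in every library, as given below. Here and below, CPM refer to the known miRNA tags of a library, corrected by TMM (a trimmed-mean adjustment of library size), and are given as mean ± SD of 3 libraries. Known miRNAs made up 24.3% ± 1.53 of all tags in the ET1 libraries and 38.2% ± 7.75 in untreated libraries, and rRNA fragments 9.44% ± 2.05 in the ET1 libraries and 4.55% ± 1.22 in untreated libraries.

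The mature sequences of the members, from RefSeq (GRCm38.p6), are shown because the guide arms share most of the seed, bases 2 to 8, which is in capitals.
miR-183-5p: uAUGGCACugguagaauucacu
miR-96-5p: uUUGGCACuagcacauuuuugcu
miR-182-5p: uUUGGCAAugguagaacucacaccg
miR-183-3p: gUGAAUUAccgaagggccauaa
miR-182-3p: gUGGUUCUagacuugccaacu
miR-96-3p: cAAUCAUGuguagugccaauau
Counted from the 5′ end, miR-96-5p and miR-182-5p had the same bases 2 to 7 and differed within the seed by C8A (base of miR-96-5p first). miR-183-5p differed from miR-96-5p within the seed by A2U, and from miR-182-5p by A2U and C8A (base of miR-183-5p first). Outside the seed miR-183-5p was closest to miR-182-5p, with 12 of 14 bases identical from position 9 on, and with miR-96-5p it shared 6 of 14. Over the whole 22 bases, 18 were identical between miR-183-5p and miR-182-5p, and how tags of such similar sequences were assigned was not given in the sources used here. Of the 1673 mature mouse miRNAs outside the cluster in the RefSeq table, miR-1271-5p alone shared bases 2 to 8 with a guide arm of the cluster (miR-96-5p), and it had at most 2 tags in any library.

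The precursors lie on the minus strand of GRCm38, Mir183 at chr6:30169668-30169737, Mir96 at chr6:30169446-30169551 and Mir182 at chr6:30165918-30165992. Mir96 and Mir183 are 116 bases apart, and Mir182 is 3453 bases from Mir96. All 3 lie within the RefSeq non-coding gene Mirc35hg (chr6:30158640-30174125, minus strand). In GENCODE M21 no other gene overlaps them, and the nearest protein-coding genes are Nrf1 and Ube2h. Rncr4, a non-coding RNA of the opposite strand (chr6:30172893-30175126), overlaps the start of Mirc35hg.

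The promoter window of Mirc35hg (RefSeq, chr6:30174076-30174375, minus strand, from 250 bases before to 50 after the annotated start) is printed because it is the annotated start upstream of all 3 precursors. Capitals mark the matches to the motifs searched.
Mirc35hg promoter: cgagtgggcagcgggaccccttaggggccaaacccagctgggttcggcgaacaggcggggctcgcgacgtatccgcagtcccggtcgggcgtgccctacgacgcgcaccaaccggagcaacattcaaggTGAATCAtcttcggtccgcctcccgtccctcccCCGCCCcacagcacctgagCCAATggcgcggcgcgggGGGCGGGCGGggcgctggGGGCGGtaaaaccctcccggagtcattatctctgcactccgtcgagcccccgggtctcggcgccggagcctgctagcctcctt
The motifs searched on both strands were the GC box GGGCGG, the CCAAT box CCAAT, the TATA box TATAAA, the cyclic AMP response element TGACGTCA, the E-box CACGTG and the AP-1 motif TGANTCA. The window held 4 matches to the GC box, of which a pair overlapped, 1 to the CCAAT box and 1 to the AP-1 motif. These are found in 35.7%, 37.4% and 7.81% of 32851 mouse promoter windows of the same length. The TATA box, the cyclic AMP response element and the E-box had no match in this window, and 13.6%, 1.79% and 7.15% of the promoters held them. The GC content was 70.3%, against a median of 52.7% over all promoters.

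The guide arms of miR-183 and miR-182 made up nearly all tags of the cluster. After TMM scaling both were lower in each ET1 library than in any untreated library, as were 11.0% of all tested miRNAs. Without TMM both overlapped between groups, and neither passed the test over all miRNAs. miR-183-5p, the most abundant member, had 723, 389 and 557 tags in ET1 libraries 1, 2 and 3, against 1942, 1095 and 1046 tags in untreated libraries 1, 2 and 3. This corresponds to 135.8, 82.2 and 97.8 CPM in ET1 libraries, against 273.9, 155.1 and 175.5 CPM in untreated libraries. The highest ET1 library thus lay below the lowest untreated library, and library 1 was the highest in each group. miR-183-5p ranked between 146 and 194 among the known miRNAs by tag count in ET1 libraries and between 115 and 151 in untreated libraries.

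miR-182-5p had 403, 198 and 310 tags in ET1 libraries 1 to 3, against 942, 555 and 548 tags in untreated libraries 1 to 3. Its CPM were 75.7, 41.8 and 54.4 in ET1 libraries, against 132.8, 78.6 and 91.9 in untreated libraries. The groups did not overlap but nearly touched, ET1 library 1 at 75.7 CPM lying next to untreated library 2 at 78.6 CPM. The order of the 6 libraries was that of miR-183-5p.

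miR-96-5p, the member whose seed is mutated in hereditary deafness, was scarce. It had 17, 11 and 19 tags in ET1 libraries 1 to 3, against 56, 23 and 31 tags in untreated libraries 1 to 3. At 3.19, 2.32 and 3.33 CPM in ET1 libraries and 7.90, 3.26 and 5.20 CPM in untreated libraries, the groups overlapped, since untreated library 2 lay below ET1 library 3.

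The passenger arm miR-183-3p had 18, 23 and 46 tags in ET1 libraries 1 to 3, against 63, 30 and 32 tags in untreated libraries 1 to 3. Its CPM were 3.38, 4.86 and 8.07 in ET1 libraries and 8.88, 4.25 and 5.37 in untreated libraries, and the groups overlapped. miR-182-3p, the passenger arm of miR-182, had 3, 1 and 7 tags in ET1 libraries and 16, 4 and 7 tags in untreated libraries, and did not pass the filter. miR-96-3p had 0 tags in all 6 libraries, which allows a level of up to 0.622 to 0.685 CPM (without TMM) in ET1 libraries and 0.347 to 0.481 in untreated libraries (3 tags per library, counting error only).

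**Figure D1:**
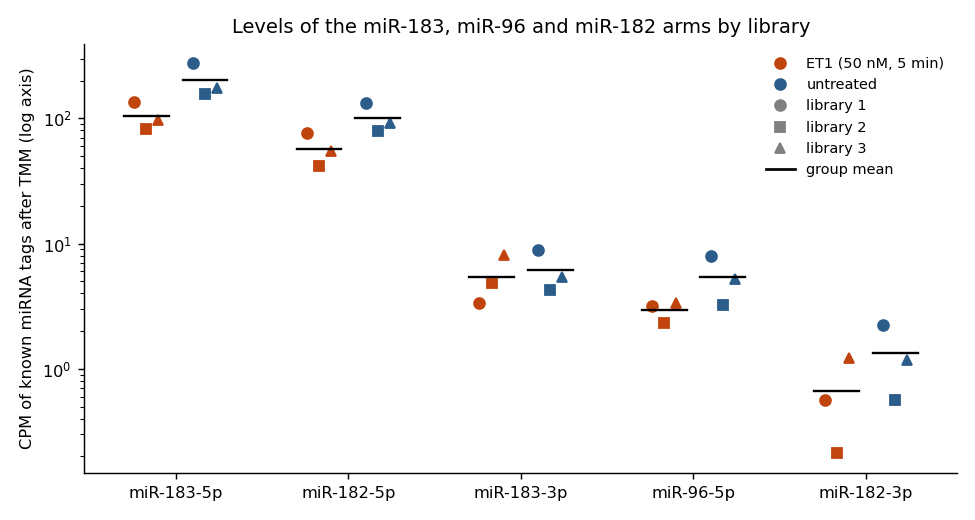
Level of each detected arm in each library, in TMM-scaled CPM on a log axis, with ET1 libraries left of untreated libraries, 1 symbol per library and the group mean as a line. miR-183-5p (82.2 to 135.8 CPM in ET1, 155.1 to 273.9 CPM in untreated libraries) and miR-182-5p (41.8 to 75.7 CPM in ET1, 78.6 to 132.8 CPM in untreated libraries) did not overlap between groups, while the other arms did. Of all 616 tested miRNAs, 11.0% were lower in ET1 without overlap on this scale.

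None of the 4 tested members passed the test, in a comparison in which 1.79% of all 616 tested miRNAs did (edgeR quasi-likelihood test, Benjamini-Hochberg adjusted p under 0.05). miR-183-5p averaged 105.3 ± 27.6 CPM in the ET1 libraries and 201.5 ± 63.5 CPM in untreated libraries (n = 3 each), 1.91-fold lower with a 95% interval of 1.04 to 3.52 (log2 fold change −0.94, SE 0.41; edgeR adjusted p = 0.24). The mean of miR-182-5p was 57.3 ± 17.1 CPM with ET1, against 101.1 ± 28.3 CPM untreated, with a log2 fold change of −0.82 (SE 0.44; edgeR adjusted p = 0.35) and an interval from −1.75 to 0.11. That of miR-96-5p was 2.95 ± 0.547 CPM with ET1, against 5.45 ± 2.33 CPM untreated, with a log2 fold change of −0.88 (SE 0.52; edgeR adjusted p = 0.38) and an interval from −1.997 to 0.24. For miR-183-3p it was 5.44 ± 2.40 CPM with ET1, against 6.17 ± 2.42 CPM untreated, with a log2 fold change of −0.18 (SE 0.51; edgeR adjusted p = 0.88) and an interval from −1.27 to 0.91.

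The median log2 fold change of the 4 tested members was −0.85, against 0.0058 over all tested miRNAs, and 10.9% of the tested miRNAs lay at or below the value of miR-183-5p. An unadjusted p under 0.05 was found for 1 of the 4 members (miR-183-5p) and for 18.3% of all tested miRNAs. After TMM scaling 2 of the 4 members were lower in ET1 without overlap, as were 11.0% of all tested miRNAs. The separation rested on the scaling. In CPM without TMM, miR-183-5p had 88.8 to 156 in the ET1 libraries and 126.6 to 239 in untreated libraries and miR-182-5p had 45.2 to 87.1 with ET1, against 64.2 to 116 untreated, so that all 4 members overlapped, and 5.03% of the tested miRNAs were lower without overlap. In RPM, the same scale taken over the tags of all rows, miR-183-5p had 20.04 to 39.9 in the ET1 libraries and 50.5 to 92.9 in untreated libraries, and 3 of the 4 members (all but miR-183-3p) were lower without overlap, as were 15.7% of the tested miRNAs. The median log2 fold change over the tested miRNAs was 0.37 with library sizes alone and −0.26 with total tags.

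The ET1 libraries had the smaller share of known miRNA tags and the larger share of rRNA fragments, as given above. With the share of known miRNA tags as a covariate, the log2 fold changes were −0.89 for miR-183-5p, −0.80 for miR-182-5p, −1.25 for miR-96-5p and −0.39 for miR-183-3p, with edgeR adjusted p of 0.86, 0.87, 0.86 and 0.95. The share was 22.6% to 25.5% in the ET1 libraries and 30.1% to 45.6% in untreated libraries. It thus separated the groups fully, and this fit cannot tell the share and the treatment apart. The part of the rRNA share was not tested. Without untreated library 1, in which the guide arms were highest, the log2 fold changes of miR-183-5p, miR-182-5p and miR-96-5p were −0.64, −0.56 and −0.50. That of miR-183-3p was 0.19 without this library, 0.044 without ET1 library 1 and 0.19 with library sizes alone, so that its sign was not fixed. In bulk RNA, fewer cells of a type and less RNA per cell cannot be told apart.

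**Figure D2:**
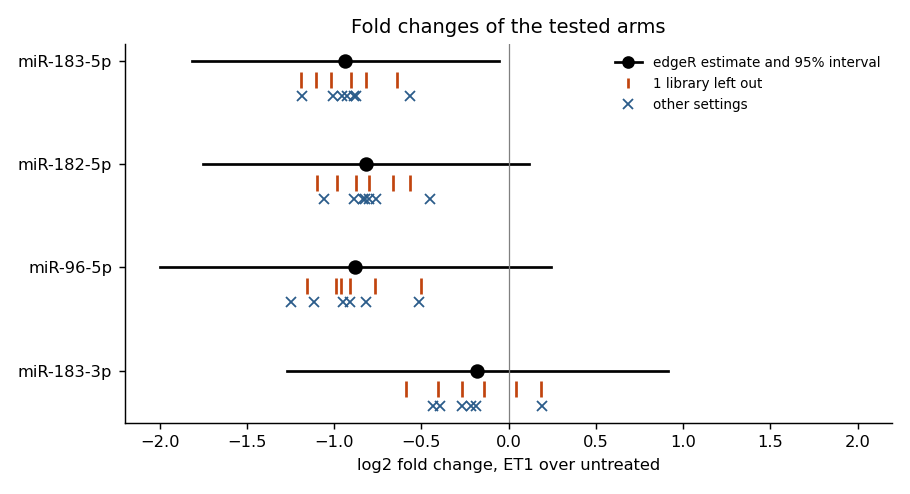
Log2 fold change of ET1 over untreated for the 4 tested arms, with the edgeR estimate and its unadjusted 95% interval (black), the values with 1 library left out (ticks) and the values under other settings (crosses). The guide arms stayed below 0 in each setting run, while miR-183-3p had values on either side of 0.

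After TMM scaling the levels of the guide arms were correlated across the libraries. Over the 6 libraries the Pearson correlation of log2(CPM + 1) between miR-183-5p and miR-182-5p was 0.99 (exact permutation p = 0.0014, adjusted 0.014 over 10 pairs of arms, two-sided). With library sizes alone in place of TMM it was also 0.99 but did not pass (exact permutation, adjusted p = 0.069). The Spearman correlation was 1, since the libraries had the same order (exact permutation p = 0.0028, adjusted 0.028, the smallest p that 6 libraries allow for ranks). It was 0.99 when each library was taken as its deviation from its group mean, and 0.99 (n = 4 libraries) without ET1 library 2 and untreated library 1, the libraries farthest from the median. None of the 612 tested miRNAs outside the cluster had a correlation with miR-183-5p as high as that of miR-182-5p, and their median was −0.064. All correlations share the same libraries and scaling. The permutation p-values treat the 6 libraries as independent, which was not established.

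miR-96-5p, with 11 to 56 tags per library, had lower correlations with the other guide arms. Its correlation was 0.92 with miR-183-5p and 0.91 with miR-182-5p (exact permutation p = 0.015, adjusted 0.038, for each), with Spearman values of 0.83 for both (exact permutation p = 0.058, adjusted 0.12). Neither Pearson correlation passed with library sizes alone (0.89 for both; exact permutation, adjusted p = 0.073) or with 0.1 CPM added in place of 1 (0.92 for both; adjusted p = 0.051). Without ET1 library 2 and untreated library 1 the correlations were 0.60 and 0.62 over 4 libraries, so their height depended on these libraries. Against miR-182-5p the counts varied no more than counting error gives (chi-square 0.683 per degree of freedom). Of the 612 miRNAs outside the cluster, 0.654% correlated with miR-183-5p at least as highly as miR-96-5p did. As deviations from the group means the correlations of miR-96-5p with miR-183-5p and miR-182-5p were 0.83 and 0.82. On these deviations 3.27% and 4.58% of the miRNAs outside the cluster correlated at least as highly with miR-183-5p and miR-182-5p.

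**Figure D3:**
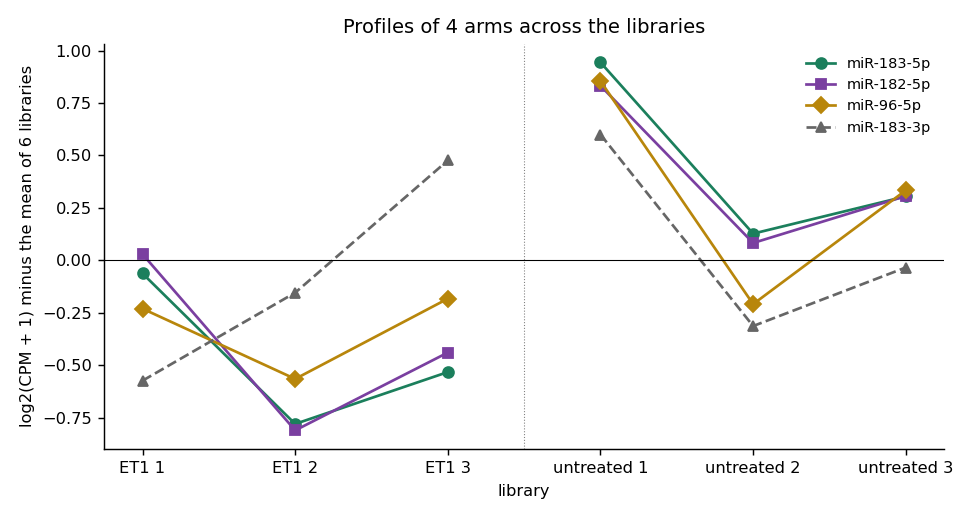
Log2(CPM + 1) of 4 arms in each library minus the mean of the arm over the 6 libraries, ET1 libraries on the left, where the lines only link values of an arm and the libraries have no order. miR-183-5p and miR-182-5p lie almost on each other (r = 0.99), miR-96-5p follows them (r = 0.92 with miR-183-5p), and miR-183-3p does not (r = 0.30).

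Ratios within a library do not depend on the scaling between libraries. There were 1.79, 1.96 and 1.80 tags of miR-183-5p per tag of miR-182-5p in ET1 libraries 1 to 3, against 2.06, 1.97 and 1.91 in untreated libraries 1 to 3. The log2 ratio averaged 0.89 ± 0.075 in the ET1 libraries and 0.99 ± 0.056 in untreated libraries (n = 3 each), and the groups overlapped (two-sided exact permutation p = 0.2, adjusted 0.6 over 3 ratios). With 3 libraries against 3 no p below 0.1 can be reached. Its SD over all 6 libraries was 0.080, and each of the 612 miRNAs outside the cluster varied more against miR-182-5p, the lowest being miR-132-3p at 0.19 and the median 0.90. The chi-square of the 2 arms' counts over the libraries was 1.06 per degree of freedom, close to the value of 1 that counting error alone gives.

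miR-96-5p tags numbered 4.22%, 5.56% and 6.13% of miR-182-5p tags in ET1 libraries 1 to 3, against 5.94%, 4.14% and 5.66% in untreated libraries 1 to 3. The log2 ratio was −4.21 ± 0.28 in the ET1 libraries and −4.25 ± 0.27 in untreated libraries (n = 3 each), without a difference past the test (exact permutation p = 0.7, adjusted 0.7) and with a chi-square of 0.683 per degree of freedom. miR-183-5p made up 61.3% ± 1.75 of the cluster's tags in the ET1 libraries and 63.8% ± 0.800 in untreated libraries, miR-182-5p 33.2% ± 1.40 with ET1 and 32.2% ± 0.903 untreated, and miR-96-5p 1.75% ± 0.282 with ET1 and 1.69% ± 0.295 untreated.

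No such relation was detected between the arms of miR-183, which come from the same precursor. Over the 6 libraries miR-183-3p correlated with miR-183-5p at 0.30 and with miR-182-5p at 0.28 (exact permutation p = 0.57 and 0.59, adjusted 0.59 for both; Spearman 0.37 for both, exact permutation p = 0.50). Without ET1 library 2 and untreated library 1 the values were −0.59 and −0.63 (n = 4 libraries). With miR-96-5p the correlation of miR-183-3p was higher, at 0.60, but did not pass (exact permutation p = 0.18, adjusted 0.23). That value was 0.66 as deviations from the group means and 0.36 without ET1 library 3 and untreated library 1 (n = 4 libraries). Of the miRNAs outside the cluster, 32.03% correlated with miR-183-5p at least as highly as its own passenger arm did.

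The 3p arm made up 2.43% (95% Wilson interval 1.54% to 3.81%), 5.58% (3.75% to 8.24%) and 7.63% (5.77% to 10.03%) of miR-183 tags in ET1 libraries 1 to 3. In untreated libraries 1 to 3 it made up 3.14% (2.46% to 4.0%), 2.67% (1.87% to 3.78%) and 2.97% (2.11% to 4.16%). The ET1 libraries differed from each other by more than counting error, with a chi-square of 9.77 per degree of freedom, and the untreated libraries had 0.283. The shares of ET1 libraries 2 and 3 lay above all untreated intervals, although the interval of ET1 library 2 overlapped them, and the share of ET1 library 1 lay below all untreated shares. The log2 ratio of 3p to 5p was −4.31 ± 0.88 in the ET1 libraries and −5.04 ± 0.12 in untreated libraries (n = 3 each), a difference of 0.73 (exact permutation p = 0.4, adjusted 0.6). It was 1.22 without ET1 library 1 and 0.37 without ET1 library 3. The intervals cover counting error only, since PCR copies are not independent molecules.

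**Figure D4:**
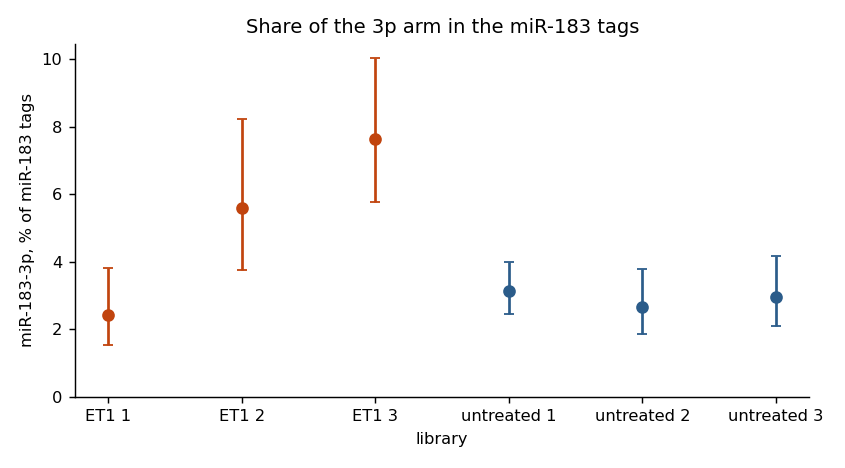
Share of miR-183-3p in all miR-183 tags of each library, in percent, with 95% Wilson intervals that cover counting error only, ET1 libraries in orange and untreated libraries in blue. The untreated libraries lie between 2.67% and 3.14%, and the ET1 libraries spread from 2.43% to 7.63%.

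The passenger arm of miR-182 rested on few tags. miR-182-3p made up 0.739%, 0.503% and 2.21% of miR-182 tags in ET1 libraries 1 to 3 and 1.67%, 0.716% and 1.26% in untreated libraries 1 to 3. Its correlation was 0.75 with miR-183-5p (exact permutation p = 0.082, adjusted 0.12). It was 0.76 with miR-182-5p and 0.80 with miR-183-3p (exact permutation p = 0.076 and 0.064, adjusted 0.12 for both). With miR-96-5p it was 0.92 (exact permutation p = 0.0069, adjusted 0.035; Spearman 0.94, adjusted p = 0.083), between arms with 1 to 16 and 11 to 56 tags per library. It was 0.81 without untreated libraries 1 and 3 (n = 4 libraries).

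The miRNAs outside the cluster whose pattern was most like that of miR-183-5p, among 397 with a mean of at least 10 CPM, were miR-151-5p, miR-99b-5p, miR-132-3p, miR-145a-3p and miR-497a-5p, with Pearson correlations of 0.95, 0.94, 0.94, 0.93 and 0.91 over 6 libraries. For miR-182-5p they were miR-99b-5p, miR-132-3p, miR-145a-3p, miR-151-5p and miR-345-5p, at 0.95, 0.95, 0.92, 0.92 and 0.91. None of these 6 passed the test between groups. Among them miR-145a-3p, the passenger arm of a smooth muscle miRNA, averaged 6.32 ± 2.61 CPM in the ET1 libraries and 21.3 ± 6.62 CPM in untreated libraries (log2 fold change −1.75; edgeR adjusted p = 0.079). Its far more abundant guide arm miR-145a-5p averaged 2431 ± 296 CPM with ET1 and 2618 ± 506 CPM untreated (log2 fold change −0.11; edgeR adjusted p = 0.88). The guide arm correlated with miR-183-5p at −0.063. miR-132-3p, a miRNA induced through CREB in neurons, averaged 22.0 ± 5.77 CPM with ET1 and 39.9 ± 3.42 CPM untreated (log2 fold change −0.86; edgeR adjusted p = 0.34).

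**Figure D5:**
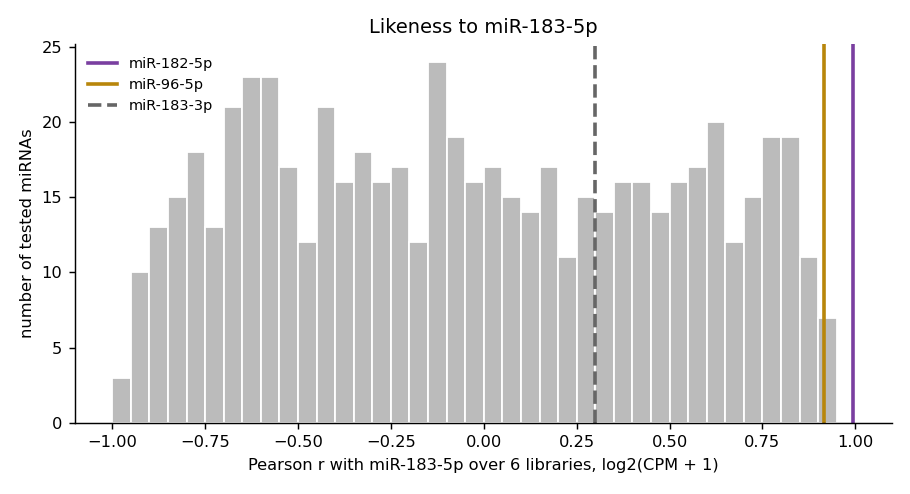
Number of tested miRNAs outside the cluster by their Pearson correlation with miR-183-5p over the 6 libraries, on log2(CPM + 1), with lines for the cluster's own arms. miR-182-5p at 0.99 lies beyond all 612 other miRNAs and miR-96-5p at 0.92 lies among the highest. miR-183-3p at 0.30 lies above their median of −0.064, with 32.03% of them at or above it.

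Other miRNAs of epithelial and sensory cells, the cell types in which the cluster is known, did not share a direction. Of 14 listed miRNAs 12 were tested, 7 with negative and 5 with positive log2 fold changes, and none passed, with a median of −0.59. The negative ones were the listed miR-200 family members (−1.42 to −0.45), miR-203-3p and miR-204-5p. The positive ones were miR-31-5p, miR-375-3p, miR-124-3p, miR-9-5p and miR-7a-5p. The summed level of the list was 1308 to 1461 CPM in the ET1 libraries and 1122 to 1693 CPM in untreated libraries. The most abundant were miR-31-5p, with 949.6 ± 158 CPM in the ET1 libraries and 656 ± 253 CPM in untreated libraries, miR-204-5p, a miRNA of retinal pigment epithelium, at 215.7 ± 50.4 CPM with ET1 and 473 ± 182.8 CPM untreated, and miR-200b-3p, a repressor of the Zeb transcription factors, at 36.3 ± 12.8 CPM with ET1 and 72.2 ± 50.7 CPM untreated (edgeR adjusted p = 0.49, 0.12 and 0.36). Over the 6 libraries miR-200b-3p and miR-204-5p correlated with miR-183-5p at 0.15 and 0.48.

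The summed leukocyte, endothelial and smooth muscle miRNAs, the last being those of the labelled cell type, were each lower in the ET1 libraries without overlap, and their part in the values of the cluster was not tested. Of 5 leukocyte miRNAs 3 were tested and 1 passed as lower with ET1, miR-150-5p. Of all 616 tested miRNAs, 0.487% passed as lower. The summed leukocyte level was 816 to 1688 CPM in the ET1 libraries and 1988 to 4441 CPM in untreated libraries. Most of it was miR-155-5p (log2 fold change −1.41, edgeR adjusted p = 0.086). The leukocyte miRNAs other than miR-150-5p and miR-155-5p had higher means with ET1, miR-142a-3p, a miRNA of all blood lineages, at 2.08 ± 0.796 CPM with ET1 and 0.572 ± 0.517 CPM untreated, miR-142a-5p at 0.884 ± 0.375 CPM with ET1 and 0.404 ± 0.364 CPM untreated, and miR-223-3p at 10.9 ± 4.60 CPM with ET1 and 8.88 ± 7.65 CPM untreated (log2 fold change 0.29; edgeR adjusted p = 0.85). The miR-142a arms had at most 14 tags in a library and were not tested. Both endothelial arms of miR-126a had negative log2 fold changes. miR-126a-3p passed the test, and miR-126a-5p did not (log2 fold change −2.01, edgeR adjusted p = 0.079). Their sum was 114 to 163 CPM in the ET1 libraries and 1107 to 1883 CPM in untreated libraries, most of it miR-126a-3p. Of 6 smooth muscle miRNAs 5 were tested, all with negative log2 fold changes, and none passed. The sums were 13055 to 15600 CPM with ET1 and 20628 to 27964 CPM untreated, most of it miR-143-3p. miR-145a-5p, with a log2 fold change of −0.11, overlapped between groups (2104 to 2683 CPM with ET1, 2116 to 3128 CPM untreated).

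The remaining lists overlapped between groups. Germ cell miRNAs, led by miR-470-5p, summed to 39647 to 76042 CPM in the ET1 libraries and 35843 to 73338 CPM in untreated libraries. These sums lay above those of the smooth muscle miRNAs in every library. Of the 9 germ cell miRNAs 7 were tested and none passed. The Sertoli cell arms of miR-202, led by miR-202-3p, summed to 621 to 1905 CPM with ET1 and 918 to 1389 CPM untreated, and neither passed. The red cell miRNAs, led by miR-451a, summed to 38.3 to 303 CPM with ET1 and 48.9 to 673 CPM untreated, with 1 of 2 tested and none passing. No listed miRNA was at 0 in all libraries.

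The authors' deposited table compared counts pooled over the 3 libraries of a group, and 67.5% of its 1147 known miRNAs with a q-value had a q under 0.05. In the authors' deposited table miR-183-5p had a log2 ratio of −0.59 (q = 3.03e-51), miR-182-5p of −0.47 (q = 6.19e-18) and miR-96-5p of −0.53 (q = 0.0104). miR-182-3p was at −0.60 (q = 0.0693) and miR-183-3p at 0.17 (q = 0.11) in the authors' deposited table. Each of these 5 ratios in the authors' deposited table was higher by 0.70 than the log2 ratio of its own pooled counts. For miR-183-3p this set the sign, since the authors' deposited table gives 87 tags in the ET1 libraries and 125 in untreated libraries, a log2 ratio of −0.52, beside the label of higher in ET1.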

How the data were processed

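Small RNA libraries were counted in 3 ET1-treated and 3 untreated samples of primary peritubular myoid cells. Per the file headers, the authors deposited tag counts for 61628 small RNA rows in each library, with a column headed TPM that is, from the values, an RPM over all rows (not used). Bowtie2 and mm10 are named per the submitters' processing notes; mismatches and multi-mapping rules are not given in the sources used here. Rows naming no gene (exon, intron, intergenic and repeat totals) held 59.7% to 61.4% of tags in ET1 libraries and 44.3% to 58.5% in untreated libraries. They were not fitted as rows. Their tags did count in the total tags behind the RPM and behind the alternative fit with total tags as library size. The deposited comparison table, named for DEGseq, gives pooled counts, group means of the RPM, a log2 ratio of ET1 over untreated, and p-values and q-values; the authors' settings for these are not stated.

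The known miRNA counts entered edgeR 4.0.16 under R 4.3.3 (TMM factors 0.816 to 1.18, default filter, robust quasi-likelihood fit with group as the only term, two-sided, Benjamini-Hochberg over 616 miRNAs, threshold 0.05). SE is the log2 fold change over the square root of F. Correlations used log2(CPM + 1) and ratios added 0.5 to each count; their p-values enumerate all pairings or splits. The fit was tested on simulated data. Alternatives were DESeq2 1.42.0, other scalings and filters, a covariate, a replicate block and leaving out each library. The miRNAs named beside the members were the 5 most alike to miR-183-5p and to miR-182-5p, those sharing a seed, and members of the marker lists, among them the most abundant of each list. The members and lists were chosen with earlier results of these data known. Sequences and gene positions are RefSeq GRCm38.p6 (all 6 members matched by name), the same assembly as mm10, with gene context from GENCODE M21.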

Additional observations from a re-analysis of the deposited data

How the results depend on the processing

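None of the members passed the test in any of the 13 alternatives, edgeR and DESeq2 included. The log2 fold changes with 1 library left out ran from −1.19 to −0.64 for miR-183-5p, from −1.10 to −0.56 for miR-182-5p, from −1.15 to −0.50 for miR-96-5p and from −0.59 to 0.19 for miR-183-3p. Under the other settings they ran from −1.18 to −0.57, from −1.06 to −0.45, from −1.25 to −0.52 and from −0.43 to 0.19. miR-183-3p was positive with library sizes alone (0.19). miR-96-5p and miR-183-3p did not reach 10 CPM in 3 libraries, so the stricter filter gave them no value. The number of known miRNAs called was 11 in the reported fit, 39 in DESeq2, 41 with library sizes alone, 37 without a filter, 0 in edgeR with the miRNA share as a covariate (39 at an unadjusted p under 0.05, and 39 called by DESeq2 without it), and 2 to 30 with 1 library left out. The miRNA share separated the groups fully, so the fit with this covariate could hardly detect a difference between them. The log2 ratio of miR-96-5p to miR-182-5p, 0.039 between groups, ran from −0.12 to 0.20 with 1 library left out. For miR-183-5p with miR-182-5p, the correlation with library sizes alone was 0.99 (adjusted permutation p = 0.069). For miR-183-5p with miR-96-5p it was 0.89 with library sizes alone and 0.92 with 0.1 CPM in place of 1 added. It was 0.60 without the 2 libraries farthest from the median. For miR-96-5p with miR-182-5p the values were 0.89, 0.92 and 0.78 (farthest by miR-96-5p). None of these passed, and the cause was not tested. Without the 2 farthest libraries the exact permutation p was 0.46 and 0.21. The lowest p that 4 libraries allow is 0.042, which miR-183-5p with miR-182-5p reached. Same-numbered libraries shared deviations from their group means at correlations of 0.29, 0.069 and 0.28 over 616 miRNAs. Differently numbered libraries had −0.25 to −0.00031, so each library correlated best with its own number. The labels do not say whether the numbers pair the samples, and the reported fit did not pair them. If they do, the permutation p-values, which treat the libraries as independent, do not hold as given. The replicate block gave 21 calls and called no member. Counts of 11 to 56 tags limit miR-96-5p, and 1 to 16 tags limit miR-182-3p.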

Other observations

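Rows of the Rfam precursor families, which are counted apart from the mature arms and entered no comparison above, also held a few tags of the cluster. The mir-183 family row had 40, 17 and 14 tags in ET1 libraries 1 to 3 and 76, 34 and 33 tags in untreated libraries 1 to 3, or 1.27 ± 0.818 RPM of all tags with ET1 and 2.34 ± 1.13 RPM untreated (SD, n = 3 each), with overlap between groups. The mir-182 family row had 9, 15 and 23 tags in ET1 libraries and 14, 12 and 10 tags in untreated libraries, or 0.816 ± 0.344 RPM with ET1 and 0.595 ± 0.0989 RPM untreated. The mir-96 family row had 0, 2 and 2 tags in ET1 libraries and 0 in each untreated library. In ET1 library 3, where the share of miR-183-3p was highest, the mir-182 family row was at its highest and the mir-183 family row at its lowest level in RPM of all tags.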
